A study of Caenorhabditis elegans with 2 samples.

Results

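The genes described here are 10 forkhead transcription factor genes of Caenorhabditis elegans other than pha-4, namely daf-16, fkh-2, fkh-7, fkh-8, fkh-9, fkh-10, lin-31, let-381, unc-130 and pes-1. They were taken by name from the Ensembl annotation of assembly WBcel235 (ce11), and all 10 were found among its 19973 nuclear protein-coding genes. For each gene, peaks of PHA-4 chromatin immunoprecipitation were counted when their summit lay in the gene itself or in the stretch that begins 5000 bp before its start and ends 500 bp after it. Peaks were present at 3 of the 10 genes, daf-16, fkh-7 and fkh-9, and the less strict list made from both replicates held 10 peaks at them. The other 7 genes had no peak in any of the 4 thresholded lists.

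Forkhead factors share a winged-helix DNA-binding domain that reads short sites such as TGTTTAC. PHA-4 is the FoxA member of the family, required to make the pharynx and later active in the intestine and other tissues. DAF-16 is the worm's FoxO factor, which insulin signalling keeps out of the nucleus and which acts in dauer formation, stress resistance and lifespan. LIN-31 acts in vulval fate choice downstream of MAP kinase, UNC-130 in axon guidance and cell migration, LET-381 (FoxF) in mesoderm, and FKH-8 in ciliated sensory neurons. PES-1 and FKH-2 act partly redundantly in the embryo, and FKH-9 acts in neurons downstream of DAF-16.

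Binding was profiled in 2 biological replicates that formed 1 group, so the design holds no comparison between conditions and no test was run. The worms were of strain RW12220, in which CRISPR had inserted TY1, EGFP and 3xFLAG tags at the endogenous pha-4 locus on chromosome V (allele st12220). They were synchronized as starved L1 larvae after bleaching and collected whole as L4 larvae at 48 h, so all cell types were pooled and the cells in which a site was bound cannot be told apart. Chromatin was sonicated to 200 to 800 bp and immunoprecipitated through the GFP tag according to the description of each sample, although the label for the antibody reads pha-4. Neither replicate had a read number in the sources used here, so the depth behind the peaks is unknown. On the nuclear chromosomes the main list, made from both replicates, held 2920 peaks, the conservative list from both held 1555, the list of replicate 1 held 2114 and that of replicate 2 held 1643. Every thresholded peak had an irreproducible discovery rate (IDR, the expected share of irreproducible peaks among those ranked at least as high) of at most 0.01. The ranked lists behind them, which also keep weak candidates, held from 47072 to 84912 entries.

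The 3 genes with peaks were the same in each thresholded list. In the main list they were 3 of 10 members against 18.3% of all nuclear protein-coding genes. In the conservative list the background was 11%, in replicate 1 it was 14.4% and in replicate 2 it was 11.2%, with 3 of 10 members in each. When only the stretch from 1000 bp upstream to 500 bp downstream of the gene start was read, 0 of the 10 members had a main-list peak, against 7.15% of all genes. The 3 genes with peaks were also the 3 longest of the set. Among all genes of at least 10000 bp, 32.6% had a peak in a window made the same way, and the members among them had one in 3 of 3. Among genes under 10000 bp the share was 17.5%, and the members among them had one in 0 of 7. The share was higher in each longer class, from 14.6% of genes under 2000 bp to 35.9% of genes of 20000 bp or more.

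**Figure D1:**
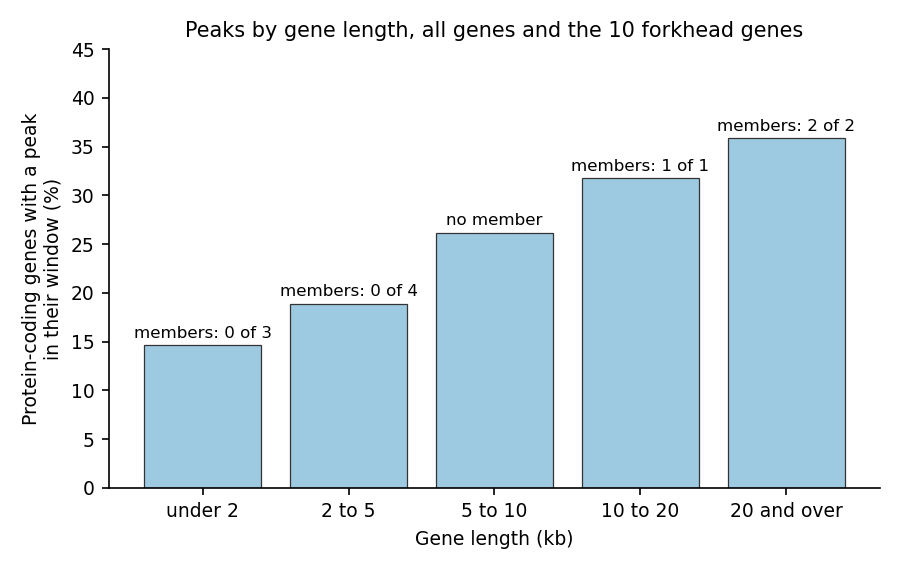
Share of nuclear protein-coding genes with a main-list PHA-4 peak in their window (y axis, percent) by gene length (x axis, kb), as bars, with the count of the 10 forkhead genes that had a peak printed above each bar. The bars climb from 14.6% to 35.9%, and the 3 members with peaks are those in the classes from 10 kb upwards.

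The sequences below span 100 bp to each side of a summit and were read from the RefSeq copy of WBcel235, plus strand, 5′ to 3′. They are shown because member peaks differed in whether they held a searched forkhead heptamer, and at which distance from the summit. Capitals mark a heptamer of the searched set, in either orientation. That set is listed further below and holds only forms ending in C. Forms ending in T, such as TGTTTAT, were not searched and stay in lower case. The first, at the strongest member peak, lies in intron 4 of the longest fkh-7 transcript (chrIV:5604531-5604731) and holds TGTTTAC, starting 39 bp before the summit. The same span holds TGTTTAT nearer to the summit, in lower case. The second, at the fkh-7 peak 22830 bp downstream of the gene start (chrIV:5607414-5607614), holds no searched heptamer in this span. The next 3 lie in the long first intron of fkh-9, which is on the minus strand. The span at 719 bp (chrX:3826144-3826344) holds TATTTAC starting 22 bp after the summit. The span at 2428 bp (chrX:3824435-3824635) holds TATTTGC, read as GCAAATA on the plus strand, starting 73 bp before the summit. It also holds ATAAACA nearer to the summit, which reads TGTTTAT on the opposite strand and was not among the sequences searched. The span at 6084 bp (chrX:3820779-3820979) holds no searched heptamer.
fkh-7 peak at 19947 bp: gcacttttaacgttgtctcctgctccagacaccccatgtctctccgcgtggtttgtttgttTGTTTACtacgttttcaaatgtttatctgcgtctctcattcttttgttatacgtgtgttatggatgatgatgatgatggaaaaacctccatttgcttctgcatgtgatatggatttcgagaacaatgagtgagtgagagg
fkh-7 peak at 22830 bp: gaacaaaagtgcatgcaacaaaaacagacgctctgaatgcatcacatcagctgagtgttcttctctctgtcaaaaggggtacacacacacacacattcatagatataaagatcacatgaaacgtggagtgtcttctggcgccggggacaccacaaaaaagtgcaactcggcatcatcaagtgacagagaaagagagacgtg
fkh-9 peak at 719 bp: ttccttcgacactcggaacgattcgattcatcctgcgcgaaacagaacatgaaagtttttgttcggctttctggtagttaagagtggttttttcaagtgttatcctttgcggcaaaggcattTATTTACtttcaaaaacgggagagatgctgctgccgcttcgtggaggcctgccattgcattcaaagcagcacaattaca
fkh-9 peak at 2428 bp: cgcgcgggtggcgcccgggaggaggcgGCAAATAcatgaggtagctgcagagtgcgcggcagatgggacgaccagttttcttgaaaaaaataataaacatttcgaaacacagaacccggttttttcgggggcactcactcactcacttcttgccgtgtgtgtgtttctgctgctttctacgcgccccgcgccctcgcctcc
fkh-9 peak at 6084 bp: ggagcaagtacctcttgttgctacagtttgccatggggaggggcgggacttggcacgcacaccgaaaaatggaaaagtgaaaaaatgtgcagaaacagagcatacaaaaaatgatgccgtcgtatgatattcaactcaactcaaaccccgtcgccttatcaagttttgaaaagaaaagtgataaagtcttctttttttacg

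At fkh-7 (WBGene00001439, chromosome IV, 5584684 to 5610378, plus strand), a gene of 25695 bp with 14 coding transcripts from 4 distinct starts, the main list held 2 peaks. The stronger had its summit 19947 bp downstream of the gene start, with the authors' signal value of 203.9 in the main list, rank 440 of 2920 and above 84.9% of its peaks. Its signal was 98.0 in replicate 1 and 95.3 in replicate 2, each on the scale of its own list, and each was above 99.0% of the candidates of its replicate. It was in all 4 thresholded lists. The summit lay in an intron of 3019 bp, 1599 bp upstream of the start shared by a group of shorter fkh-7 transcripts.

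The weaker fkh-7 peak, at 22830 bp, had a main-list signal of 91.3, above 38.6% of the list. It was in the conservative list and in that of replicate 2, where its signal was 39.5. In replicate 1 the overlapping candidate had a signal of 62.2 but a −log10 IDR of 1.47, short of the threshold of 2. The summit was intronic to all 12 coding transcripts over it and lay in an exon of the noncoding transcript F26D12.1c, within 250 bp of the piRNA gene 21ur-3187 and 849 bp upstream of a coding start. A further site at 6694 bp, in the first intron of 16465 bp, was in the conservative list (signal 101.7) and in that of replicate 1 (76.4) but not in the main list. Its replicate 2 candidate had a signal of 35.3 and a −log10 IDR of 1.22. In the pooled ranked list its −log10 IDR was 0.15. The conservative list is not a part of the main list, as 108 of its 1555 peaks were not in the main list. A site at 20630 bp was in the list of replicate 1 alone (69.2), with no overlapping candidate in replicate 2. The gene start nearest to both main-list peaks was that of C39H7.4, 9977 and 7094 bp away, and not that of fkh-7.

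At fkh-9 (WBGene00001441, chromosome X, 3816847 to 3826963, minus strand), a gene of 10117 bp with 5 distinct coding starts, the main list held 5 peaks, more than at any other member. At least 5 peaks were found at 0.170% of all genes and at 2.30% of genes of 10000 bp or more. The strongest lay 7051 bp downstream of the gene start, with a main-list signal of 152.8 (rank 782), 100.8 in replicate 1 and 59.4 in replicate 2. It was in all 4 thresholded lists. Its summit was in the 5′ UTR of transcript K03C7.2c.3 and in intron 2 of the longest transcript, 282 bp upstream of the next coding start.

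The other 4 fkh-9 peaks lay in intron 1, of 6285 bp. The one at 2428 bp was weak in the main list (70.7, above 13.3% of peaks) yet was in all 4 lists, with 52.5 in replicate 1 and 44.2 in replicate 2. It lay within 250 bp of the noncoding RNA gene K03C7.14. The peak at 719 bp (83.2) was in the list of replicate 2, at 53.3, and not in that of replicate 1, where the candidate had a signal of 35.8. The peak at 6084 bp (82.8), 307 bp upstream of an internal coding start, was in the list of replicate 1, at 69.3, and not in that of replicate 2, at 21.4. The peak at 1408 bp (64.3) was in the main list alone, with candidates of 49.2 and 17.4 in replicates 1 and 2. Thus 2 of the 5 peaks were shared by both replicate lists, 1 was in each replicate list alone and 1 was in neither.

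**Figure D2:**
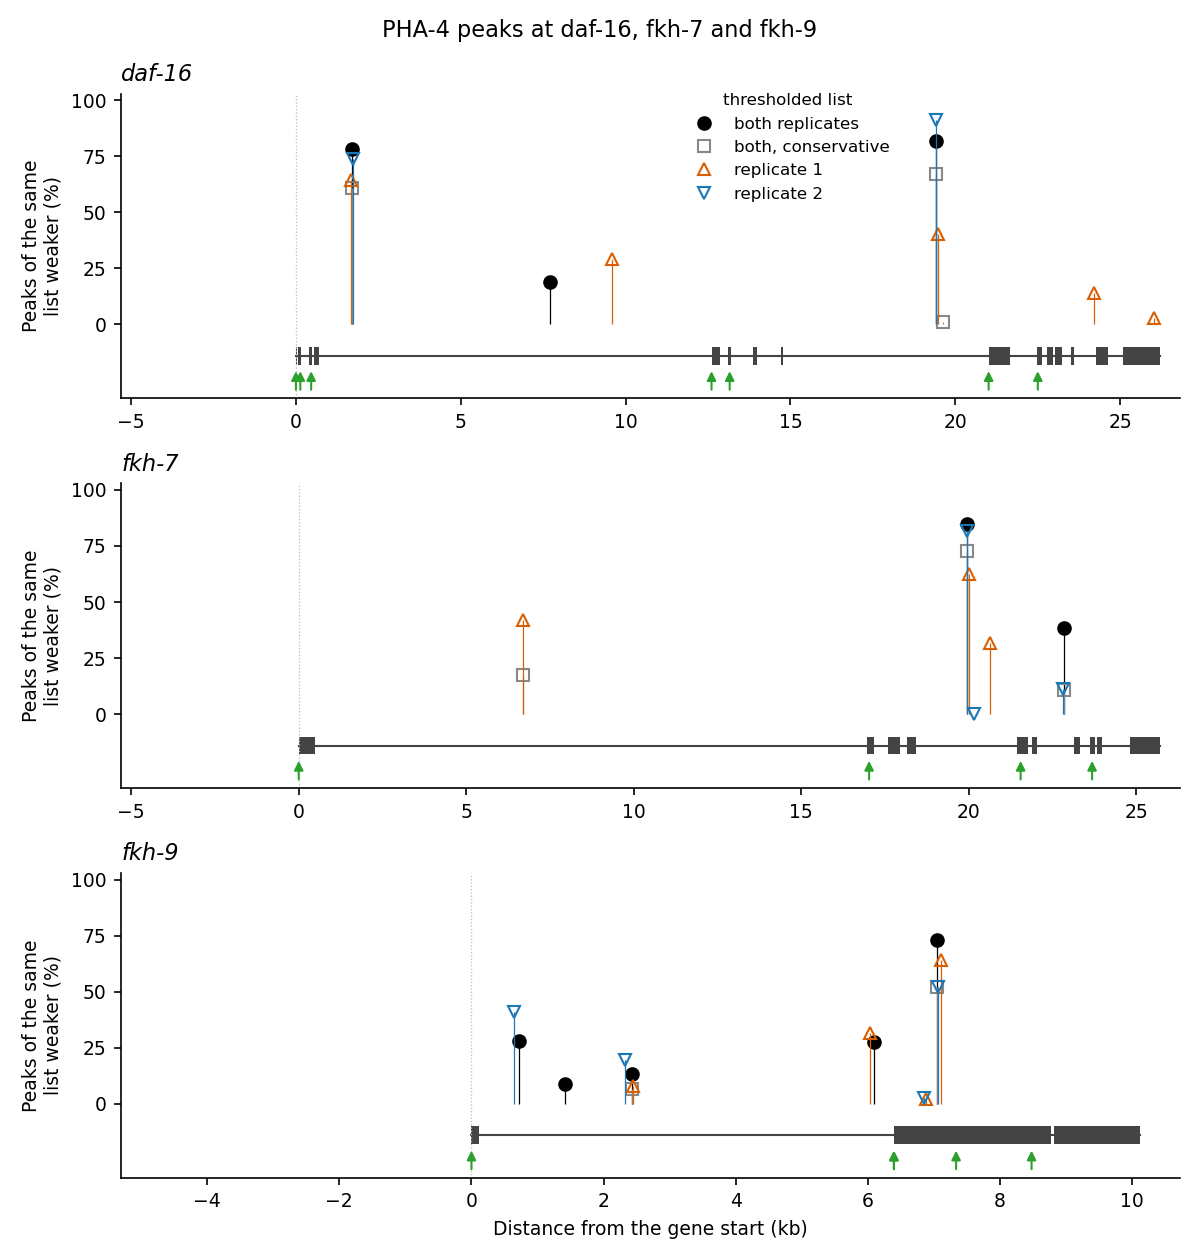
Thresholded PHA-4 peaks at daf-16, fkh-7 and fkh-9 by distance of the summit from the gene start (x axis, kb) and by the share of peaks of the same list with a weaker signal (y axis, percent). Symbols give the 4 lists, grey boxes are exons of coding transcripts and green arrows are distinct starts of coding transcripts. No symbol lies upstream of a gene start, and all 4 symbols stand together at 2 sites of daf-16, 1 of fkh-7 and 2 of fkh-9.

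The map of peaks along the 3 genes shows columns of 4 symbols at 5 sites, where all lists hold a peak. Of the other 10 sites, 1 was in 3 lists, 3 were in 2 lists and 6 were in 1. Small symbols near 0% beside a tall column are secondary summits of the same region with very low signal, as at 20145 bp in fkh-7 (2.19 in replicate 2).

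At daf-16 (WBGene00000912, chromosome I, 10750498 to 10776703, plus strand), a gene of 26206 bp with 11 coding transcripts from 7 distinct starts, the main list held 3 peaks. At least 3 peaks were found at 1.59% of all genes and 6.21% of genes of 10000 bp or more. The strongest peak, 19426 bp downstream of the gene start, had a main-list signal of 186.9 (rank 537, above 81.6% of the list), 75.0 in replicate 1 and 123.5 in replicate 2. In replicate 2 it was above 91.1% of thresholded peaks and its −log10 IDR reached 5.00, and in replicate 1 it was above 40.3%. The summit lay in intron 6 (7676 bp) of the longest transcript, within 250 bp of the noncoding RNA gene R13H8.5 and 1584 bp upstream of an internal coding start. The nearest gene start was that of gpx-8, 12966 bp away.

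The peak at 1715 bp had a main-list signal of 170.2 (rank 641), 101.0 in replicate 1 and 79.98 in replicate 2, so the replicates ordered the 2 strong daf-16 sites differently. It lay in intron 3 (12401 bp), 1253 bp downstream of the nearest coding start and within 250 bp of the noncoding RNA gene H36N01.2. Both sites were in all 4 thresholded lists. The third, at 7698 bp in the same intron, was in the main list alone (76.0, above 19.1% of it), with candidates of 47.1 and 26.6 in replicates 1 and 2 that did not pass. It was 4907 bp upstream of the nearest coding start, the greatest distance among the member peaks. Replicate 1 alone added sites at 9585 bp (67.5), 24192 bp (57.8) and, in the 3′ UTR, 26034 bp (24.3). Replicate 2 had no overlapping candidate at the first of these, and at the others its candidates, of 11.1 and 25.7, did not pass.

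Over the 4 lists the 3 genes held 15 sites, of which 11 were in the list of replicate 1 and 7 in that of replicate 2. Of the 10 main-list peaks, 5 overlapped a peak of each of the other 3 thresholded lists, against 28.7% of all main-list peaks. All 10 overlapped a candidate in the ranked list of each replicate, as did 93.9% of all main-list peaks.

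**Figure D3:**
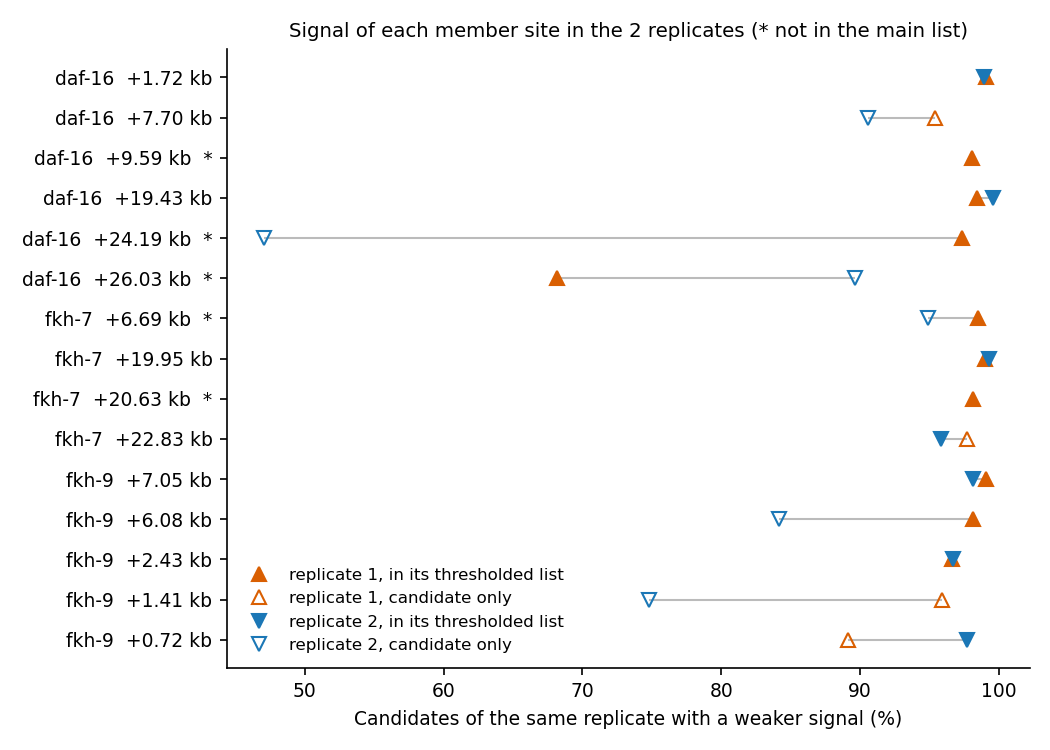
Signal of each of the 15 sites in the ranked list of each replicate, as the share of that replicate's candidates with a weaker signal (x axis, percent), by gene and distance from its start (y axis, kb). Filled symbols passed the threshold of that replicate, open symbols did not, and a missing symbol means no overlapping candidate. The 5 sites with filled symbols for both replicates lie above 96% in each, while the widest gap is at the daf-16 site at 24192 bp, at 97.4% in replicate 1 and 47.0% in replicate 2.

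In the plot of the 2 replicates, sites that passed in both sit together at the right edge. Of the 8 sites that passed in 1 of the 2 replicate lists, 4 had a lower standing in the other and 2 had no candidate there. The remaining 2 stood higher where they did not pass, namely the daf-16 site at 26034 bp (89.6% in replicate 2 against 68.2% in replicate 1) and the fkh-7 site at 22830 bp (97.7% in replicate 1 against 95.9% in replicate 2).

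All 10 member peaks lay inside the gene and more than 500 bp downstream of its start, and 0 lay upstream. That 0 depends on the window edge at 5000 bp. Main-list peaks lay just beyond it, 5263 bp upstream of fkh-9 and 5354 bp upstream of pes-1. Another main-list peak lay 800 bp beyond the end of daf-16. Over all genes, a gene and a peak in its window formed 5146 pairs, of which 74.8% were upstream of the start, 4.31% in the first 500 bp and 20.9% further into the gene. Over genes of at least 10000 bp, 36.0% of 578 pairs were upstream and 61.2% were further than 500 bp into the gene. Measured from the nearest start of any coding transcript, the member summits lay at a median of 1330.5 bp (range 282 to 4907), against 818.5 bp over all 2920 peaks. Within 2000 bp of such a start were 8 of 10 member peaks and 74.5% of all peaks, and within 1000 bp were 4 of 10 and 55.5%. Their signal was moderate, with a median of 87.3 and a range of 64.3 to 203.9, against a median of 103.2 and a highest value of 1253 over the list.

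Near the summits, 8 forkhead heptamers were searched on both strands. The set began with TGTTTAC followed by TGTTTGC, continued with TATTTAC followed by TATTTGC, and added TGTTGAC besides TATTGAC as well as TGTTGGC besides TATTGGC. All 8 end in C. The same forms ending in T, such as TGTTTAT, were not searched, so a peak counted without a heptamer may hold one of those. Read on the opposite strand, TGTTTAC becomes GTAAACA, the core of the site known for DAF-16, so a match cannot tell PHA-4 from its relatives. Within 50 bp of the summit, 3 of 10 member peaks (30%) and 12.2% of all 2920 peaks held at least 1 of them. Within 100 bp the counts were 5 of 10 and 21.6%, and over whole peaks 7 of 10 and 30.0%. Of the 8 heptamers searched, those within 50 bp were TGTTTGC at the daf-16 peak at 1715 bp, TGTTTAC at the fkh-7 peak at 19947 bp and TATTTAC at the fkh-9 peak at 719 bp. In the list as a whole TGTTTAC stood within 50 bp of 2.05% of summits, TGTTTGC of 3.42% and TATTTAC of 1.47%. TATTTGC stood within 100 bp at the fkh-9 peaks at 2428 and 7051 bp, against 3.29% of all peaks. Of the 5 peaks shared by all 4 lists, the one without a heptamer within 100 bp was the strongest daf-16 peak, whose outer part held TATTTGC.

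The GATA factor hexamer TGATAA, which intestinal regulators read, was within 50 bp of 0 of 10 member summits and 8.84% of all summits, and within 100 bp of 2 of 10 and 17.3%. Those 2 were the daf-16 peak at 7698 bp and the fkh-9 peak at 6084 bp, neither of which held a heptamer. Base composition varied widely among the members. Over the 100 bp to each side of the summit, GC content ran from 35.8% at the fkh-9 peak at 1408 bp to 56.7% at that at 2428 bp, around the median of 43.3% over all peaks.

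The 7 genes without a peak fell into those with weak candidates and those with none. The strongest standing was at pes-1 (WBGene00003976, chromosome IV, 5002748 to 5005486, plus strand), where the best candidate, at −1976 bp from the gene start, had a signal of 44.9 and a −log10 IDR of 0.68 in the pooled ranked list. Its 7 candidates there, 10 in replicate 1 and 1 in replicate 2 all stayed under the threshold of 2. A main-list peak lay 5354 bp upstream of the pes-1 start, just outside the window of 5000 bp. In the list of replicate 1 the next peak upstream was 52835 bp away. At fkh-10 (WBGene00001442, chromosome I, 10163475 to 10165132, minus strand) the best of 11 pooled candidates, at −4230 bp, had a −log10 IDR of 0.55. At lin-31 (WBGene00003017, chromosome II, 3982549 to 3987029, plus strand) the best, 3956 bp into the gene, had a signal of 43.8 and a −log10 IDR of 0.55 in the list that ranks the replicates against each other. At unc-130 (WBGene00006853, chromosome II, 11281966 to 11283959, plus strand) only the ranked list of replicate 2 held candidates, 4 in number, with a best −log10 IDR of 0.39 and a signal of 17.1 at −2602 bp.

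At fkh-2 (WBGene00001434, chromosome X, 3740207 to 3742323, minus strand), fkh-8 (WBGene00001440, chromosome II, 6189623 to 6191393, minus strand) and let-381 (WBGene00002601, chromosome I, 6320289 to 6324019, minus strand) none of the 8 lists held a candidate in the window, which was also so for 18.8% of all genes. The surroundings of the first 2 were sparse. In the pooled ranked list the next candidate lay 41010 bp upstream and 5950 bp downstream of fkh-2, and 43051 bp upstream and 11488 bp downstream of fkh-8. At let-381 the next lay 14134 bp upstream but 829 bp beyond the gene end, and a main-list peak lay 2367 bp beyond it. With the depth unknown, a gene without a candidate is one where none was listed, not one shown to be unbound.

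**Figure D4:**
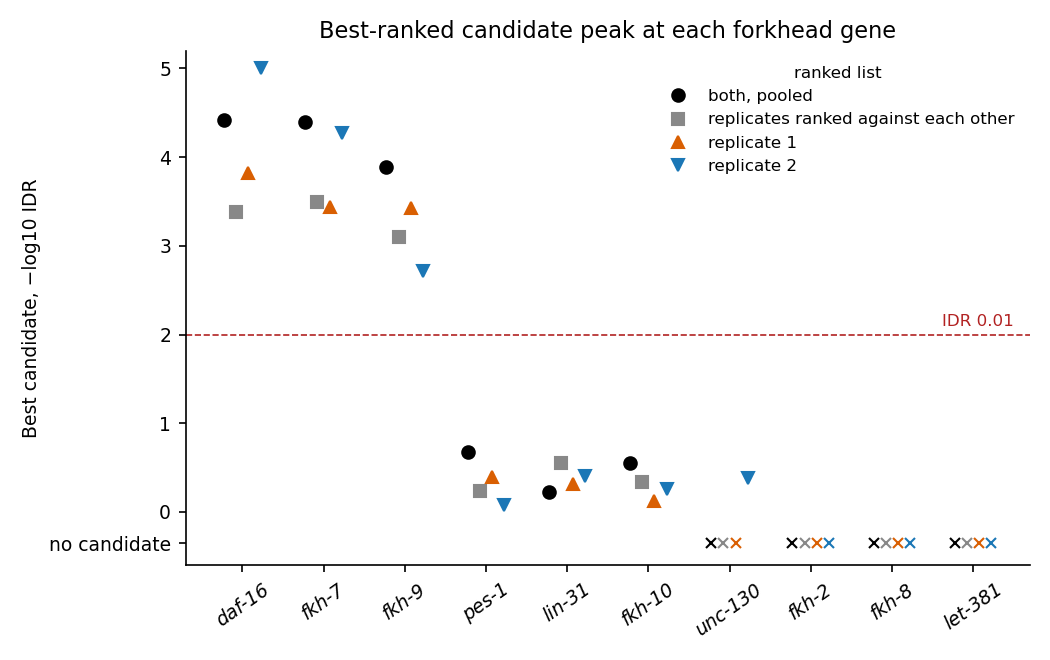
Best candidate in the window of each of the 10 genes, as −log10 IDR (y axis), in the 4 ranked lists (symbols), with crosses where a list held no candidate and a dashed line at an IDR of 0.01. The 3 genes with peaks lie above 2 in every list and the other 7 lie at or below 0.68.

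The plot of best candidates shows a gap and no gene near the line: daf-16, fkh-7 and fkh-9 ranged from 2.72 to 5.00, and no other member exceeded 0.68. Counted per 10 kb of window in the pooled ranked list, candidates were densest among the members at fkh-7 (19.5), fkh-10 (16.5), fkh-9 (15.9) and daf-16 (13.5). At pha-4 itself the value was 17.9. No value over all genes was set beside these, so they are not shown to be high. The order of the members differed between replicates. In replicate 1 the value was 12.02 at fkh-10, 12.9 at pes-1 and 14.8 at lin-31, against 15.2 to 17.9 at the 3 genes with peaks, and in replicate 2 it was 3.00 at fkh-10 against 8.01 to 11.9.

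Of the remaining 5 forkhead genes of the annotation with an fkh name or pha-4 itself, only pha-4 (WBGene00004013) had main-list peaks. They lay in its introns at 722 bp (67.1, in the main list alone) and 2603 bp (57.0, also in replicate 1), weaker than 9 and 10 of the 10 member peaks, with no heptamer within 100 bp. The genes fkh-3, fkh-4, fkh-5 and fkh-6 had none, with fkh-6 closest at a −log10 IDR of 1.27.

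Genes that work with the members were read in the same window, against 18.3% of all genes in the main list. The share was 14.4% in replicate 1 and 11.2% in replicate 2. Of 12 insulin signalling genes upstream of daf-16, 8 had a main-list peak, 6 in replicate 1 and 5 in replicate 2. The strongest were at ftt-2 (257.1), a 14-3-3 protein that holds DAF-16 in the cytoplasm, pptr-1 (182.8), a phosphatase 2A subunit acting on AKT-1, the kinase gene pdk-1 (125.9) and the phosphoinositide 3-kinase adaptor gene aap-1 (121.6). The gene of the insulin receptor, daf-2, had 1 peak, in neither replicate list. The substrate adaptor gene ist-1 and the kinase genes age-1, akt-1 and sgk-1 had none. At 4 of the 12 a peak was within 1000 bp upstream to 500 bp downstream of the start. In that stretch 0 of 10 members and 7.15% of all genes had one. The 12 insulin signalling genes had a median length of 5905 bp, against 2027 bp over all genes and 3235 bp over the members.

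Of 10 genes often used to read DAF-16 activity, 3 had a peak. They were icl-1 (182.5), of the glyoxylate cycle, the lipase gene lipl-4 (164.2) and the glycolytic gene gpd-2 (79.8), and in each case another gene start was nearer to the strongest peak. The superoxide dismutase gene sod-3, the metallothionein gene mtl-1, the catalase gene ctl-2 and dod-3 had none. At lipl-4 the list of replicate 1 held a peak and that of replicate 2 held none. Of 12 vulval induction genes, the setting of LIN-31, 5 had a peak, with lin-12 (Notch, 144.1), sem-5 (an SH2 adaptor, 127.9), let-60 (Ras, 117.1) and mek-2 (a MAP kinase kinase, 97.3) the strongest. The EGF gene lin-3, its receptor gene let-23, the Raf gene lin-45 and lin-1, the ETS partner of LIN-31, had none. In the list of replicate 1 a peak was held by 3 of the 12 vulval genes, against 14.4% of all genes. In that of replicate 2 it was 2 of the 12, against 11.2%. Peaks at lin-12, sem-5 and mek-2 were found in replicate 1 and not in replicate 2, and the reverse held at let-60.

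Of 12 axon guidance genes 5 had a peak, among them slt-1 (Slit, 186.6), vab-1 (an Eph receptor, 96.0) and unc-52 (perlecan, 88.2), and 8 of the 12 were of at least 10000 bp. The genes unc-129, which UNC-130 represses, unc-6 (netrin) and its receptors unc-5 and unc-40 had none. The list of replicate 1 held a peak at 4 of the 12 axon guidance genes, against 14.4% of all genes. That of replicate 2 held a peak at 3 of them, against 11.2%, with none at vab-1 and unc-52. Of 14 cilium genes 2 had a peak, che-13 (an intraflagellar transport protein, 326.6) and daf-19 (the RFX factor, 70.1), while the transport genes osm-1, osm-3, osm-5 and osm-6 had none. At daf-19 neither replicate list held a peak. Each list held a peak at 1 of the 14 cilium genes, against 14.4% of all genes in replicate 1 and 11.2% in replicate 2. Of 13 mesoderm genes 1 had a peak, sma-9 (a Schnurri homologue, 211.5), while hlh-1, hlh-8, ceh-34 and mls-1 had none. The lists differ in gene length and were not tested. Over all genes, 32.6% of those of at least 10000 bp and 17.5% of those under 10000 bp had a peak. Among the longer genes of the lists, 4 of 8 axon guidance, 2 of 4 vulval and 2 of 3 insulin signalling genes had one. So had 1 of 3 cilium and 1 of 2 mesoderm genes. Among the shorter genes, 1 of 4 axon guidance, 3 of 8 vulval and 6 of 9 insulin signalling genes had one. The same was so for 3 of 10 genes that read DAF-16 activity, 1 of 11 cilium and 0 of 11 mesoderm genes. In the conservative list, with a background of 11%, a peak was held by 1 of 12 axon guidance genes, 3 of 12 vulval genes and 5 of 12 insulin signalling genes. As at the genes that read DAF-16 activity, the strongest peak was at some genes nearer to another gene's start. This was so at 4 of the 5 axon guidance genes with a peak, vab-1 (ipla-1) and unc-52 (atgp-2) among them, at lin-12 (gst-1), at che-13 (F59C6.18) and at 2 of the 8 insulin signalling genes, aap-1 (chp-1) being one.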

How the data were processed

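Chromatin immunoprecipitation followed by sequencing was measured in 2 replicates. The authors deposited peak lists on ce11, per the labels; aligner and peak caller are not given in the sources used here. The deposited signal is the caller's own value on a scale set per list, used only within a list. The deposited ranked lists give the −log10 of the IDR. Per-replicate signals came from each replicate's own lists. Only peaks on the nuclear chromosomes were used. Gene windows came from Ensembl release 115. Counts, positions and heptamers were computed with Python 3.11.15, pandas 2.3.3 and numpy 2.4.6, and counting was tested on simulated peaks. Members and gene lists were chosen with earlier results of these data known, and the split at 10000 bp after values were seen. Named were all members, pha-4, genes nearest to member peaks and, per list, up to 4 genes with a peak, by signal, and up to 4 without, in list order; daf-2 was added after its value was seen, and 1 gene the rule names is not reported here. Alternatives were other lists, windows, overlap rules, summit merging and motif spans. A planned comparison of protein sequences was not analysed here. Depth is unknown, so no intervals are given.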

Additional observations from a re-analysis of the deposited data

How the results depend on the processing

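The 3 members with a peak were the same under the conservative list, an IDR of at most 0.05, the gene body and the overlap rules. Leaving out either replicate gave 3 members each time and 9 to 12 peaks in place of 10. Some of these were secondary summits of the same region. Without replicate 2 the 12 peaks lay at 11 sites, and without replicate 1 the 9 peaks lay at 7. In the window from 5000 bp upstream to 500 bp downstream of the start, and in that from 1000 bp upstream, 0 members and 0 peaks remained, because these windows leave out the gene bodies. Of all genes, 15.45% had a peak in the first of these windows and 7.155% in the second. An IDR of at most 0.05 gave 17 peaks, still at 3 members, while the share of all genes rose to 26.35%. Counting a peak for the nearest gene start alone gave 2 members, without fkh-7, and 7 peaks. The share of all genes with a peak, 18.3%, was 10.97% in the conservative list, 7.155% in the window from 1000 bp upstream, 4.877% in the gene body and 9.438% by nearest start, and 11.15% to 14.4% with a replicate left out. The share of member peaks with a heptamer rose from 30% to 50% within 100 bp and 70% over whole peaks. No paired analysis was possible because both replicates form 1 group.

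Limits are the unknown depth, the absence of control reads from what was analysed here, the pooled cell types and the small number of genes. Peaks were called by the authors and cannot be called anew from the lists.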
